A study of Mus musculus with 4 samples.

Results

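Immediate early genes are the first genes that a cell transcribes after a stimulus, without new protein synthesis, and in cortical neurons synaptic activity is such a stimulus. Their mRNAs are made in bursts and are short-lived, and AU-rich elements near the 3′ ends of several of them are known to mark them for decay. The Elavl proteins, also called Hu proteins, bind U-rich and AU-rich RNA and are known to stabilise such mRNAs. Elavl1 is widely made, whereas its relatives Elavl2, Elavl3 and Elavl4 are largely neuronal. The 10 genes described here were Fos, Fosb, Fosl2, Jun, Junb, Egr1, Egr3, Arc, Ier2 and Nr4a1, taken by name from 21900 coding genes. Peaks were counted for a gene when they touched its RefSeq span (GRCm38) on the strand that held most of its peaks.

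The peaks came from Elavl HITS-CLIP, in which ultraviolet light joins a protein to RNA in place and the RNA left on the immunoprecipitated protein after partial RNase digestion is sequenced. One group was 3 samples of mouse cortex, whose linkers were 25 nt long and whose shared peak list carries 2 months in its label. The other was 1 sample of N2A, an established mouse neuroblastoma line, with a linker of 7 nt. No genotype, treatment or stimulus is named for either group. The 2 months in the cortex list label are the only mention of age. The labels do not state the strain of the mice, the antibody or how many mice made up a sample. Each group has 1 list of peaks of 50 to 51 nt, with 97775 peaks in cortex and 7335 in N2A, and each peak has 1 p-value from the authors' peak calling. The lists give no tag counts, so depth is unknown and no spread between replicates exists. Differences between the lists are therefore given without a test. The cortex list held peaks in all 5 neuronal markers examined and in all 3 oligodendrocyte, 2 of 3 astrocyte, 1 of 3 endothelial and 1 of 4 microglial markers. Of the 3 neuroblastoma markers, 1 (Lin28b) also had cortex peaks. The N2A list held peaks in 2 of the 5 neuronal markers, in all 3 neuroblastoma markers and in 0 of the 13 glial and endothelial markers. Over all coding genes, 40.8% had a cortex peak and 14.4% an N2A peak. With so few markers, no test against those shares was made. In bulk samples such as these, fewer cells of a type and less RNA per cell cannot be told apart, and expression was not measured.

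Elavl peaks lay in 9 of the 10 immediate early genes, counted over both lists, and the counts for all coding genes follow. In cortex, 8 of the 10 genes carried 20 peaks in all, against a background of 40.8% of all coding genes with at least 1 cortex peak. In N2A cells, 5 of the 10 carried 1 peak each, against 14.4% of all coding genes. Fosl2, Jun, Junb and Egr1 had peaks in both lists, where 13.1% of all coding genes did. Fos, Fosb, Egr3 and Nr4a1 had them in cortex alone, Ier2 in N2A alone and Arc in neither. Of all 21900 coding genes, 8933 had a cortex peak, 2876 of them with an N2A peak as well. A further 276 had N2A peaks alone.

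The spans of these genes run from 1.52 kb (Ier2) to 21.4 kb (Fosl2), and shorter genes carried peaks less often. Of the 10078 coding genes with spans in that range, 28.4% had a cortex peak, 9.51% had an N2A peak and 7.98% had both. The 8 genes other than Fosl2 and Nr4a1 are at most 7.42 kb long (Fosb), and 6 of these 8 had a cortex peak and 4 of the 8 an N2A peak. Of the 4425 coding genes from 1.52 to 7.42 kb, a range chosen after the values had been seen, 18.9% had a cortex peak and 6.46% had an N2A peak. The counts of the immediate early genes lay above these shares in both lists. The 10 genes were chosen with earlier results of these data known, so the difference is a description of this set only. No test was made, because genes are not replicates of a sample.

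**Figure D1:**
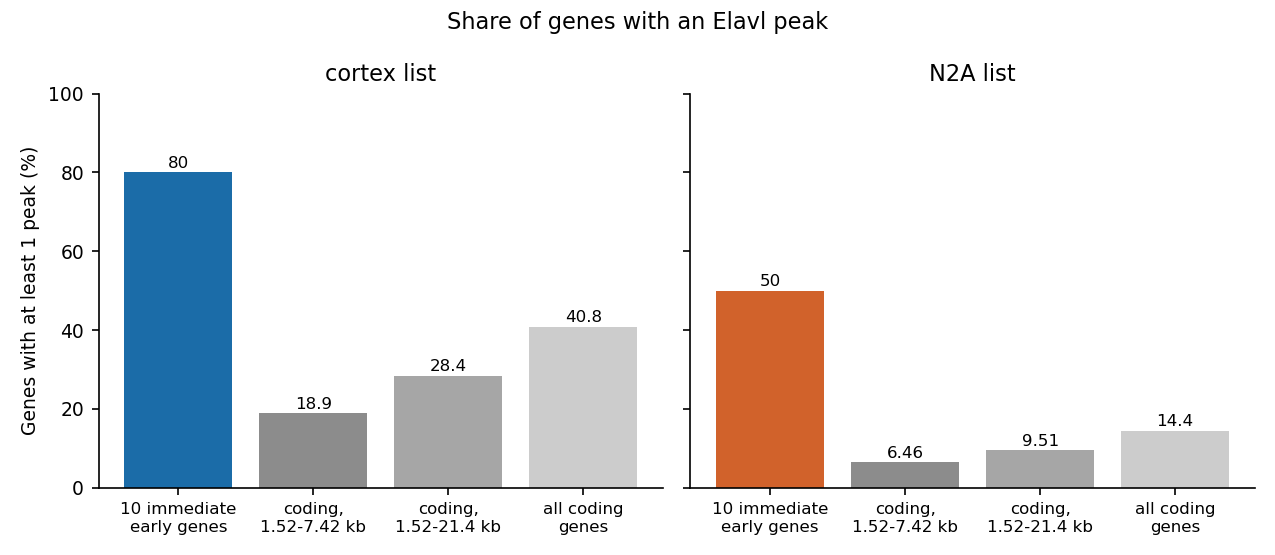
Share of genes with at least 1 Elavl peak (percent, y axis) in the cortex list and in the N2A list, for the 10 immediate early genes, for coding genes in both length ranges and for all coding genes. The immediate early genes stand at 80% in cortex and 50% in N2A, and in each list the shorter coding genes have the lowest bar (18.9% and 6.46%).

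Most of these peaks lay within the last 1 kb of the gene. The middle of the peak was within 1 kb of the gene end for 15 of 20 cortex peaks (75%, Wilson 95% interval 53.1 to 88.8) and for 5 of 5 N2A peaks (100%, 56.6 to 100). Within 500 nt of the end there were 9 of the 20 cortex peaks and 2 of the 5 N2A peaks. No share of peaks in other coding genes was taken at 500 nt. The last 1 kb makes up from 4.68% (Fosl2) to 65.7% (Ier2) of these spans. Intervals cover counting error only, peaks of 1 gene are not independent, and the labels do not say whether PCR copies of 1 molecule were collapsed by the degenerate linker. Over all coding genes, 8.34% of cortex peaks and 37.2% of N2A peaks were within 1 kb of the end. In coding genes of the same length range the shares were 34.7% in cortex and 53.4% in N2A. Among coding genes from 1.52 to 7.42 kb they were 53.7% and 64.4%, against 12 of 14 cortex peaks (85.7%) and 4 of 4 N2A peaks in the immediate early genes of that length. Exons and untranslated regions were not used here, so these positions are distances to the end of the gene span. None of the 25 peaks touched a second coding gene, and no peak of either list lay within 3 kb outside the span of any of the 10 genes.

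**Figure D2:**
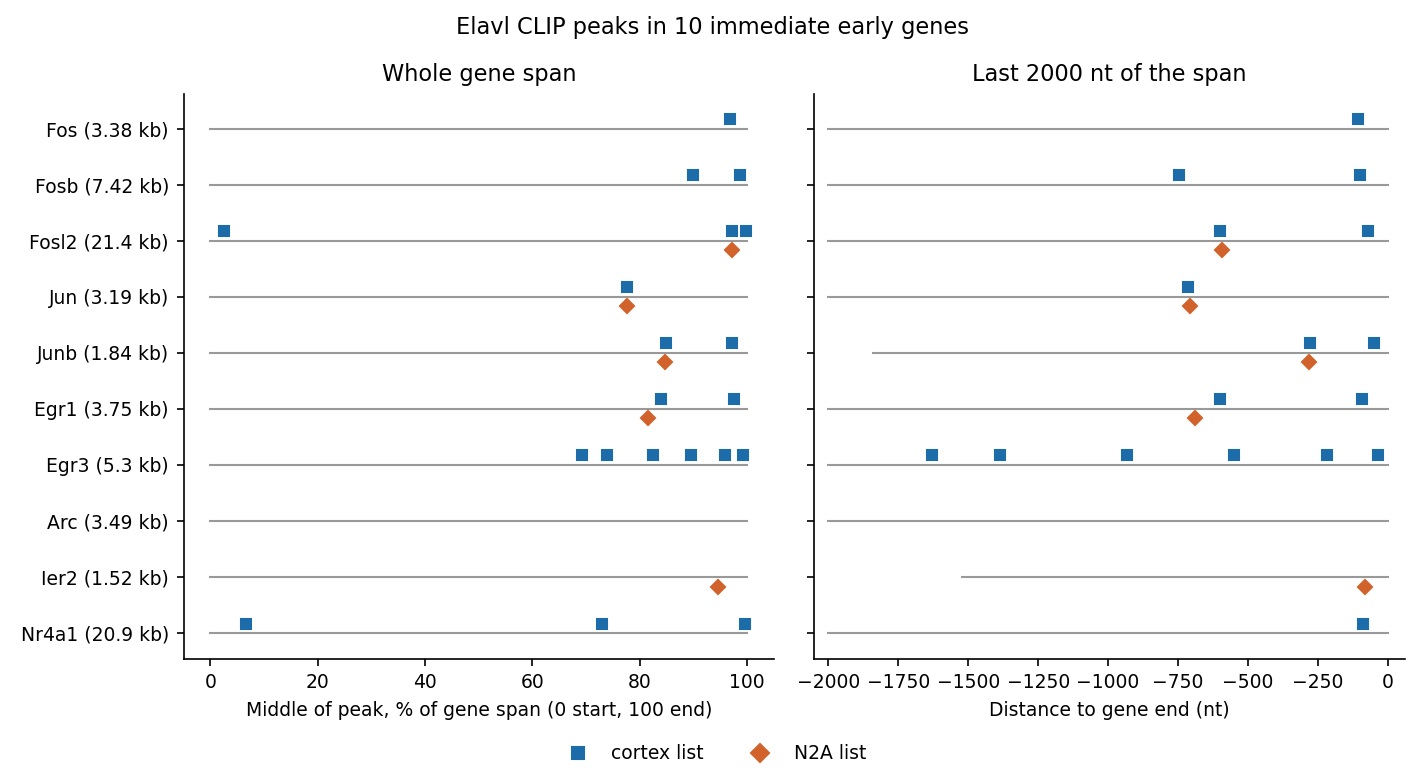
Position of every Elavl peak in the 10 genes, with cortex peaks as squares above each line and N2A peaks as diamonds below it. The left panel gives the middle of the peak as a percentage of the gene span from start to end, the right panel its distance to the gene end in nt over the last 2000 nt, where 22 of the 25 peaks lie; Arc has no peak, and Ier2 has an N2A peak alone.

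The Fos family encodes leucine zipper proteins that pair with Jun proteins to form the transcription factor AP-1. Fos, the prototype, had 1 cortex peak, at chr12:85477142-85477192 (plus strand), with a peak p of 2.85e-06 and its middle 107 nt from the gene end. That p was moderate, since 18.1% of the cortex list had a lower one. Fosb, whose splice product ΔFosB is known to accumulate with repeated stimulation, had 2 cortex peaks on the minus strand of chromosome 7. The stronger, at 19302772-19302823 with a peak p of 2.27e-10, was 101 nt from the gene end. The other, at 19303418-19303468, was 747 nt from it and had a peak p of 0.0872, and 94.7% of the list had a lower p. Neither gene had an N2A peak.

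Fosl2, which encodes the Fos-related protein Fra-2, had peaks in both lists. Its strongest cortex peak, at chr5:32157214-32157264 (plus strand), had a peak p of 7.37e-31, and 3.15% of the list had a lower p. The single N2A peak, at 32157221-32157271 with a peak p of 3.03e-06, lay 7 nt downstream of it, middle to middle, and shared 43 nt. Both were about 0.6 kb from the end of a gene of 21.4 kb, where the last 1 kb is 4.68% of the span. Of the other cortex peaks, one lay 70 nt from the gene end (peak p of 0.0275). The remaining one, at 32136994-32137045 with a peak p of 0.00264, was at the opposite end of the gene, 0.547 kb from its start.

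Jun encodes c-Jun, the founding partner of Fos in AP-1, and had 1 peak in each list. The cortex peak, at chr4:95049725-95049775 (minus strand), had a peak p of 1.11e-24 and ranked 3969 of 97775. The N2A peak, at 95049720-95049771, had a peak p of 9.92e-05 and ranked 2183 of 7335. They shared 46 nt, with middles 4.5 nt apart, and lay 714 nt (cortex) and 709 nt (N2A) from the gene end. The single Jun site, like 1 of the 3 cortex sites of Fosl2, was thus nearly the same in brain and in the tumour line.

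Junb, a Jun protein that activates AP-1 sites less strongly than c-Jun, had 2 cortex peaks on the minus strand of chromosome 8. They lay at 84977163-84977213 (peak p of 0.00846, 279 nt from the gene end) and at 84976934-84976984 (peak p of 0.0271, 50 nt from it). Neither ranked high within the cortex list, where 48.6% and 64.2% of peaks had a lower p. The N2A peak, at 84977166-84977217 with a peak p of 8.3e-05, shared 47 nt with the stronger of them, and 29.3% of the N2A list had a lower p. At 1.84 kb, Junb was the shortest of the 4 immediate early genes with peaks in both lists.

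**Figure D3:**
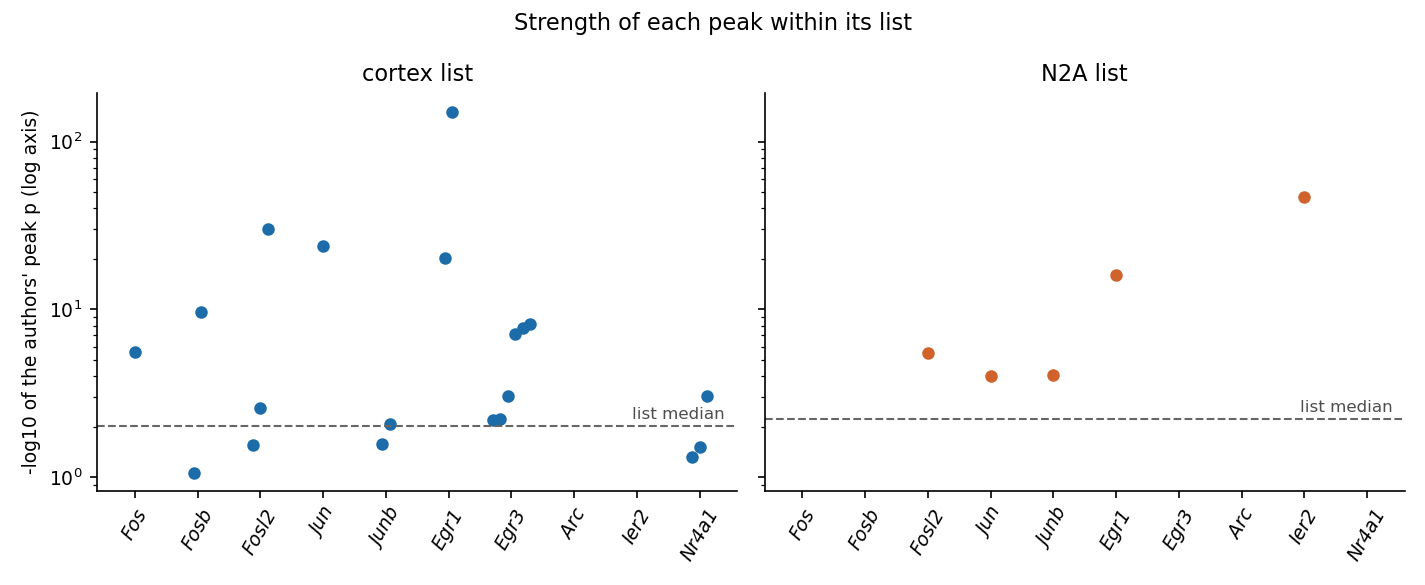
Strength of each peak as −log10 of the authors' p (log axis) for the 10 genes in the cortex list and in the N2A list, with a dashed line at the median of the whole list. Egr1 has the strongest cortex peak of the 10 genes and Ier2 the strongest N2A peak, and all 5 N2A peaks lie above the median of their list; p-values rank peaks within a list and are not comparable between the panels.

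The Egr genes encode zinc finger transcription factors of the early growth response. Egr1, also called Zif268 and widely used as a marker of neuronal activity, had the strongest cortex peak of the 10 genes. It lay at chr18:34864330-34864381 (plus strand), 600 nt from the gene end, with a peak p of 1.42e-151 and rank 334 of 97775. By best peak, Egr1 ranked 301 of 8933 coding genes with cortex peaks and 21 of the 835 such genes from 1.52 to 7.42 kb. A further cortex peak, at 34864839-34864889 with a peak p of 6.28e-21, was 92 nt from the end. The N2A peak, at 34864242-34864292 with a peak p of 1.06e-16, ranked 573 of 7335. It overlapped neither cortex peak: 38 nt separated it from the strongest one, and its middle lay 88.5 nt upstream.

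Egr3, a relative of Egr1 that is also induced by synaptic activity, had the most peaks of the 10 genes, with 6 in cortex and 0 in N2A. They spread over 1596 nt, from a first peak at chr14:70080958-70081008 to a last at chr14:70082554-70082604 (plus strand). Their middles lay 1630, 1387, 931, 551, 218 and 34 nt from the gene end, so that neighbours were 184 to 456 nt apart. The strongest, 218 nt from the end at chr14:70082369-70082420, had a peak p of 6.89e-09, and those 931 nt (peak p of 1.91e-08) and 551 nt (7.9e-08) from the end were close to it in strength. Egr3 carried 1.13 cortex peaks per kb, and the short Junb, with 2 peaks in 1.84 kb, carried 1.09. The 2851 coding genes outside the 10 with a cortex peak, in the length range up to 21.4 kb, had a median of 0.187. Of the genes with a cortex peak, 7.97% in that range and 2.04% (17 of 835) from 1.52 to 7.42 kb had 6 or more. For the shorter range no median was taken. In cortex Egr1 thus had 2 peaks, for which 0.341% and 4.95% of the list had a lower p. Egr3 had more peaks but of lower rank, and for its strongest 12.4% of the list had a lower p.

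Nr4a1 encodes the orphan nuclear receptor Nur77 and had 3 cortex peaks on the plus strand of chromosome 15, none of high rank, and 0 in N2A. The lowest p was 0.000864, at 101255277-101255328, and 32.7% of the list had a lower p. That peak lay 1.4 kb from the start of the 20.9 kb span and 11.5 kb upstream of the gene start that the RefSeq promoter table gives for Nr4a1. The others were 5.65 kb from the gene end (peak p of 0.0478) and 88 nt from it, at 101274682-101274732 (peak p of 0.0302). By its best cortex peak Nr4a1 ranked 6137 of 8933 coding genes, above Junb (7153) and below the other 6 immediate early genes with cortex peaks.

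Ier2, a small nuclear protein gene of the immediate early response, was the only one of the 10 with a peak in N2A (1) and 0 in cortex. The N2A peak lay at chr8:84661389-84661439 (minus strand), 83 nt from the gene end. Its p of 2.05e-47 was the lowest of the 5 N2A peaks, at rank 159 of 7335. Among coding genes with an N2A peak 91.2% also had a cortex peak. Of the 276 that did not, Ier2 ranked 3 by best p, behind Ranbp1 (peak p of 2.97e-67) and Ddr2 (peak p of 8.75e-53), both named after their values were seen. The nearest cortex peak on that strand was 10.1 kb away, outside the gene.

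Arc, whose protein is known to act at activated synapses in the removal of AMPA receptors, had 0 peaks in either list. Its span is 3.49 kb on chromosome 15, at 74669081-74672570. Of the 813 coding genes of 3 to 4 kb, 80.3% likewise had none. Without tag counts or expression, a gene with no listed peak cannot be given an upper limit of binding.

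In 3 of the 4 genes with peaks in both lists, the N2A peak overlapped a cortex peak on the same strand by 43 to 47 nt. As a share of each set, that was 3 of 5 N2A peaks (60%, Wilson 95% interval 23.1 to 88.2) and 3 of 20 cortex peaks (15%, 5.24 to 36). Over all coding genes 42.3% of N2A peaks overlapped a cortex peak, and in coding genes of the same length range 41.4% did. With 5 N2A peaks the interval includes both shares. Overlapping pairs had a median distance between middles of 8.5 nt over all coding genes, against 7, 4.5 and 3.5 nt in Fosl2, Jun and Junb.

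**Figure D4:**
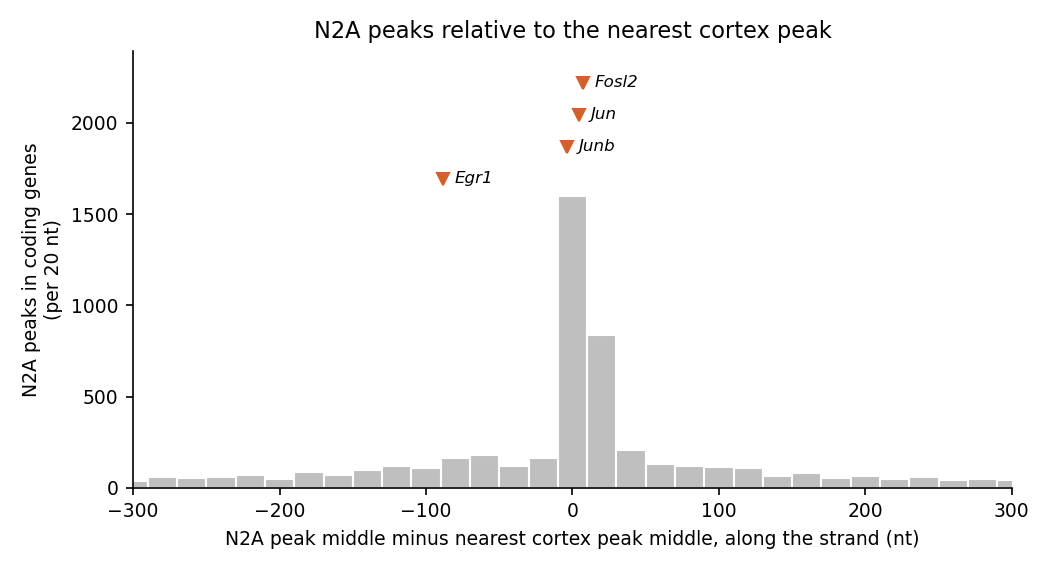
Distance along the strand from the nearest cortex peak to each N2A peak in coding genes (x axis, nt, middle to middle, negative upstream), as grey bars of 20 nt counting N2A peaks. The triangles mark Fosl2, Jun and Junb within 7 nt of a cortex peak and Egr1 88.5 nt upstream of one; the height of a triangle has no meaning, and Ier2 lies beyond the axis.

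Of 9 other Fos, Jun, Egr, Nr4a and Ier family genes, 6 had cortex peaks (66.7%) and 1 had N2A peaks (11.1%), against 40.8% and 14.4% of all coding genes. The N2A share is thus near that of all coding genes. Spans in this list run from 1.2 to 41.4 kb, and no share was taken for genes of like length. The gene with N2A peaks was Jund, the Jun gene least dependent on stimulation, with 4 cortex peaks and 3 N2A peaks in the last 1 kb of the gene. Its strongest cortex peak, at chr8:70700302-70700352 (plus strand, peak p of 1.09e-48), and its strongest N2A peak, at 70700309-70700360 (peak p of 4.28e-27), shared 43 nt. All 3 Jund peaks of N2A overlapped a cortex peak, by 43 to 49 nt. In cortex alone, Nr4a3 had 4 peaks (best peak p of 1.79e-24), Egr4 had 1, 90 nt from the gene end (peak p of 8.07e-14), and Nr4a2 had 3 (best peak p of 3.27e-08). Fosl1 had 1 weak cortex peak (peak p of 0.0596), on the minus strand, and Ier5 had 2 (best peak p of 0.0152). No annotated strand was listed for Fosl1, so that peak may not lie on its transcribed strand, though Fosl1 is among the 6 counted. Egr2, Ier3 and Ier5l had 0 in either list.

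Among 36 further activity-induced genes, 23 had cortex peaks (63.9%) and 7 had N2A peaks (19.4%), against 40.8% and 14.4% of all coding genes. The N2A share was again close to that of all coding genes. These spans run from 1.8 to 188 kb, and shorter genes carried peaks less often, but no share was taken for genes of like length. Homer1, which makes a short scaffold form upon activity, had 50 cortex peaks and 1 N2A peak, and Cpeb3, a translational regulator, had 35 and 1. These genes are long, at 101 and 188 kb. Klf10 had 2 cortex peaks and 5 N2A peaks (best peak p of 1.96e-10), Klf6 had 3 and 4, and the phosphatase gene Dusp4 had 2 and 1 (N2A best peak p of 1.26e-47). Rheb, a small GTPase gene, had 5 and 1. The lowest p among those with cortex peaks alone belonged to Dusp5 (2 peaks, best peak p of 1.49e-47), Plk2, a polo-like kinase (3 peaks, best peak p of 7.92e-47), and Pcsk1, a prohormone convertase (7 peaks, best peak p of 6.36e-30). Pim1, a kinase gene named after its values were seen, had 2 weak N2A peaks (best peak p of 0.0382, against a list median of 0.00605) and 0 in cortex.

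Of 22 factors that act upstream of immediate early genes, 20 had cortex peaks (90.9%) and 10 had N2A peaks (45.5%), against 40.8% and 14.4% of all coding genes. These genes are up to 268 kb long, against 21.4 kb for the longest immediate early gene. No share was taken for coding genes of like length. Srf, the serum response factor, which binds the Fos promoter, had 1 cortex peak (peak p of 4.12e-16) and 1 N2A peak (peak p of 1.48e-10). Of the transcription factor genes, Creb1 had 25 cortex peaks and 1 N2A peak, Mef2a had 34 and 4, Mef2d 8 and 1, and Elk1 3 and 1. The acetyltransferase genes Crebbp and Ep300 had 51 and 2 and 29 and 1, the kinase gene Map2k1 had 8 and 2, and the calcineurin gene Ppp3ca had 115 and 1. In cortex alone, the lowest p belonged to Camk4 (90 peaks), Mef2c (29) and Mrtfb (25). Of 10 further leucine zipper genes, several of which encode AP-1 partners, 8 had cortex peaks (80%) and 4 had N2A peaks (40%). The same shares of all coding genes, 40.8% and 14.4%, stand beside these, and the spans reach 99.5 kb. Atf4 had 1 weak cortex peak (peak p of 0.0696) and 1 N2A peak with a peak p of 1.54e-21. Mafg had 4 and 3, and Atf2 22 and 3. In cortex alone, the lowest p belonged to Jdp2 (3 peaks), Atf7 (22) and Maf (4).

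**Figure D5:**
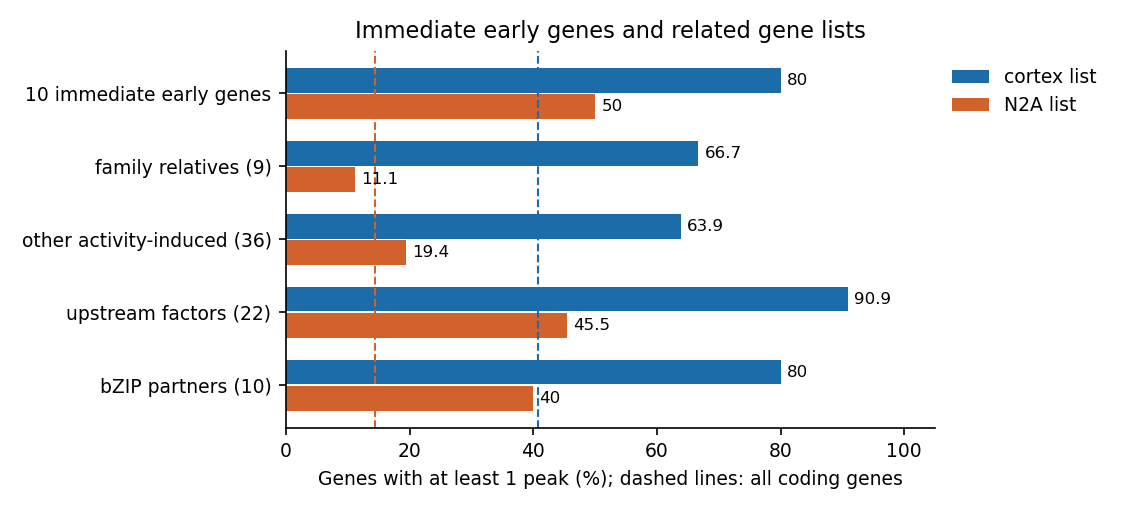
Share of genes with at least 1 Elavl peak (percent, x axis) in the cortex list (upper bar) and the N2A list (lower bar) for the 10 immediate early genes and the related gene lists, with the number of genes in brackets. Dashed lines mark all coding genes at 40.8% in cortex and 14.4% in N2A; family relatives fall below the N2A line at 11.1%, and the upstream factors have the highest cortex share at 90.9%.

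The pair of peak counts in cortex and N2A was common to many genes. The counts of Jun (1 and 1) were shared by 243 coding genes outside the 10, of which Manf was nearest in length. Those of Junb and Egr1 (2 and 1) were shared by 197, with Ddit4 nearest to Junb and Tmem250-ps nearest to Egr1, and those of Fosl2 (3 and 1) by 117, with Mtrr nearest. Likeness was judged over 2 lists only.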

How the data were processed

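The authors deposited 1 Elavl HITS-CLIP peak list per group (3 cortex samples, 1 N2A sample), and each p-value is from their peak calling, per the file headers. The caller, its filters, any adjustment and any merging of cortex reads are not stated in the labels or headers. Novoalign and hg19 are named, per the submitters' processing notes, but chromosome names are those of mouse. Coordinates were read as GRCm38, since the strand of a gene's peaks was the annotated one in 95.6% of 7347 coding genes with a listed strand and in 6 of the 6 such immediate early genes. They are given unchanged, and no source says if they start at 0 or 1.

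Peaks were matched to every RefSeq coding span (GRCm38.p6) they touched. A gene's strand was that of most of its peaks in both lists, the lowest p deciding ties, and 816 matches on the other strand were left out. Distances run from a peak's middle to the span's end. Peaks of both lists overlapped if they shared 1 nt or more and their strand. Python 3.11.15, pandas 2.3.3 and scipy 1.17.1 were used, and the functions were tested on simulated data. The 10 genes and the other lists were chosen with earlier results of these data known. Of each other gene list, genes with peaks in both lists and the 3 with the lowest best p in cortex alone were named, except some that are not reported here. No genome was used here, and 0 of the 25 peaks touched a promoter or miRNA window of the reference tables, so no sequence is printed.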

Additional observations from a re-analysis of the deposited data

How the results depend on the processing

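Of 37 alternative values, 35 stayed within 1.5 times the reported ones. The 8 cortex and 5 N2A genes with peaks were counted at every setting tried, namely p under 0.05, p at or below the median of the list, spans extended by 1 kb, at least 0.5 of a peak in the span, both strands, and peaks in 1 coding gene alone. Of these settings, only the limits on p could change the counts. No peak lay within 3 kb outside a span, on the other strand of these genes or in a second coding gene. Every peak's middle was at least 34 nt inside the gene end. The number of cortex peaks fell to 15 at the median p and to 19 with p under 0.05. The exceptions were the peaks near the gene end, which with a window of 500 nt numbered 9 in cortex and 2 in N2A, the narrower window itself being the cause. With 2 kb they numbered 17 and 5. Counting N2A peaks within 50 nt of a cortex peak added Egr1, for 4 of 5. No replicate could be left out and no paired analysis was possible because each group has 1 list. Depth is unknown, so a missing peak cannot be told apart from too few reads.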
